A study of Mus musculus with 44 samples.

Results

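Genes whose symbols begin with Srsf, Snrp, Hnrnp, Sf3a or Sf3b, Prpf, Ddx, Dhx or Rbm, with a number next for the Srsf, Sf3, Ddx, Dhx and Rbm names, were taken from the deposited expression table. The rule found 63 of the 3613 listed genes: 13 Hnrnp, 13 Rbm, 10 Ddx, 9 Snrp, 6 Srsf, 4 Sf3, 4 Prpf and 4 Dhx genes. The rule used names only, not measured values. Pre-mRNA splicing is carried out by the spliceosome, a machine built from small nuclear ribonucleoprotein particles (snRNPs), each an RNA on a ring of Sm proteins. SR proteins (Srsf) generally promote the use of the exons they bind, hnRNP proteins coat nascent RNA and often restrain splice site choice, and Rbm genes encode further RNA-binding proteins with an RNA recognition motif or related domain. DEAD-box (Ddx) and DEAH-box (Dhx) helicases use ATP to remodel RNA in the spliceosome, the nucleolus, translation, decay and antiviral sensing.

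Each library was 1 mouse cell of the strain C57BL/6J. Neonatal calvarial cells, the mixed bone cells of the newborn skull cap, had been cultured for 16 h, either together with 50000 megakaryocytes (20 cells, plate 7) or without them (24 cells, plate 3), and cells were sorted as CD45+, F4/80+ and CD41-, the gate used for osteomacs, macrophages resident in bone. Both groups were described with the same calvarial culture method, gate and kind of microfluidic capture. The titles of the cells without megakaryocytes also name megakaryocytes, so the groups follow the treatment field. No animal or separate culture is named, so each group counted as 1 sample: no test between groups was possible, SDs are between cells, and intervals (95%) cover counting error only.

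The 2 groups differed in cell type markers. The summed level of the 18 listed macrophage markers of 20 was 4037 to 57625 CPM (counts per 1000000 library reads) in the cells with megakaryocytes and 0 to 176 CPM in those without, whereas the 8 listed osteoblast and fibroblast markers of 20 summed to 3.88 to 196 CPM and 4280 to 98723 CPM. Ptprc, which encodes CD45, had a read in 20 of 20 and 1 of 24 cells, and Adgre1, which encodes F4/80, in 17 of 20 and 1 of 24, so the cells without megakaryocytes lacked the defining transcripts of their gate. Of the megakaryocyte list only Pf4 of 12 genes was listed, at 0 to 8749 CPM with megakaryocytes and 0 to 4.55 CPM without. No lymphoid, endothelial or erythroid marker was listed. The 2 listed of 9 neutrophil markers summed to 0 to 1181 CPM with and 0 to 37.7 CPM without. The 1 listed of 9 cycling markers had 0 to 192 CPM with and 0 to 325 CPM without. Treatment, plate, capture and cell content cannot be told apart in any value below. Libraries held 69181 to 1212604 reads (median 834834.5) with and 270537 to 714465 reads (median 527930) without megakaryocytes. A gene's reads were recovered from the deposited signal up to a whole factor that is the same in every cell, so groups are compared gene by gene and levels are not compared between genes. Sums over genes below take this factor as 1 for every gene, so a sum is a lower bound and its ratio between groups depends on how the genes are weighed.

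Most splicing and helicase genes were lower in the cells with megakaryocytes, but the share lower by at least 2-fold was near that of all genes. Rbm47, in contrast, had reads in all cells with megakaryocytes and in 5 of the others. A gene was compared if 10 or more of the 44 cells held a read of it, as was so for 62 of the 63 members and 3271 of all listed genes. The mean of log2(CPM + 1) over cells was lower with megakaryocytes for 58 of the 62 members (93.5%), against 72.2% of all genes compared. The median difference in this mean was -1.53 for the members and -1.10 for all genes compared. Counting a gene as higher or lower when its pooled CPM (all reads of a group over all its library reads) differed at least 2-fold and its mean log level pointed the same way, 2 members were higher (3.23%, against 21.5% of all genes compared) and 18 were lower (29.0%, against 28.2%). Either call fell on 32.3% of the members and 49.7% of all genes compared. The share of lower calls was thus near that of all genes, and the share of higher calls was below it. The median pooled log2 ratio was -0.55 for the members and -0.14 for all genes, a gap of -0.41.

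**Figure D1:**
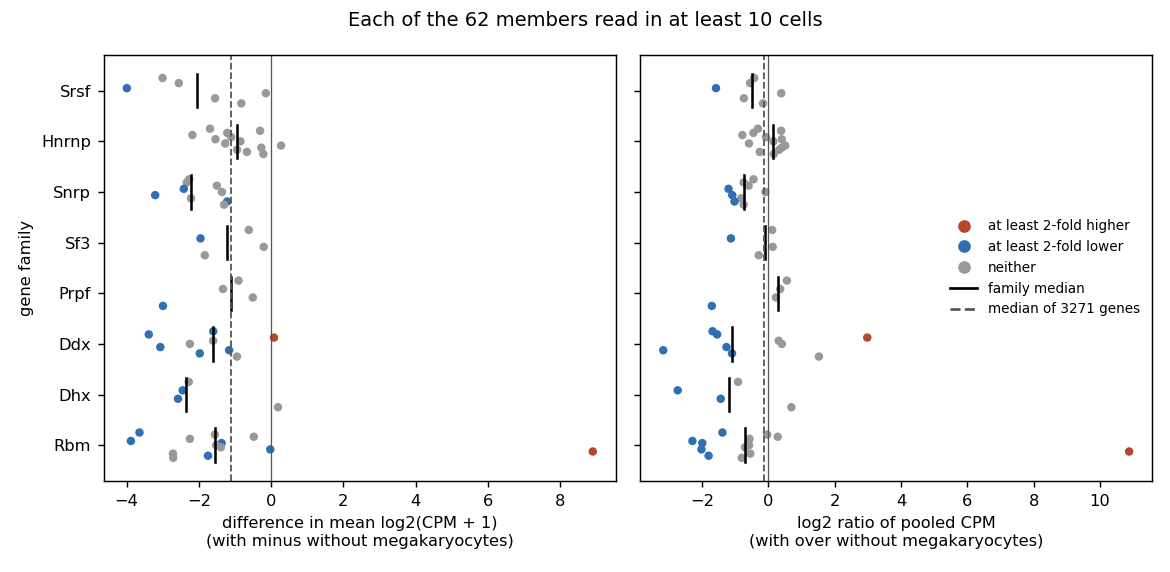
Each point is 1 of the 62 compared genes, placed by family (vertical axis) and by its difference in mean log2(CPM + 1) (left) or its log2 ratio of pooled CPM (right), with megakaryocytes against without. Black bars are family medians and the dashed line is the median of all 3271 genes compared; all 9 Snrp genes lie left of 0 in both panels, and Rbm47 lies alone at 8.90 (left) and 10.88 (right).

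The cells with megakaryocytes spread more widely. With that factor taken as 1, over the 20 cells the 63 genes together made up at least 0.633% to 2.33% of a library's reads (median 1.24%), and over the 24 cells without megakaryocytes 1.10% to 1.86% (median 1.43%). The ranges overlapped, and the pooled sum was 0.892 times as high with as without megakaryocytes. A cell with megakaryocytes had reads for 29 to 55 of the 63 genes (median 50.5), and a cell without for 49 to 61 (median 57). After libraries were thinned to 310000 reads, which left 18 and 22 cells, the medians were 47.5 and 56. Detection of all listed genes differed likewise: a cell had reads for a median of 2054 and 2492 of the 3613. Within each group the cells with more listed genes also had more members (Spearman 0.77 over 20 cells and 0.71 over 24, on shared libraries). 3 cells, all with megakaryocytes, had fewer members than the other 41. Cell 16 had 71585 reads, 29 members and 245233 CPM of the nuclear RNA Malat1, cell 7 had 873123 reads but 32 members, and cell 18 had 508854 reads, 35 members and the lowest member sum. Without the 4 cells with reads for under 1800 listed genes (cells 6, 7, 16 and 18), a limit set after seeing the data, the median difference of the members was -1.11 against -0.78 for all genes. By call 17 members were then lower and 1 higher, against 920 and 733 of the 3271 genes compared. The mean log level was higher for 7 rather than 4 members, and for 1063 rather than 909 of the 3271 genes. The part of detection, depth and RNA quality in the lower mean log levels was not tested beyond the thinning.

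**Figure D2:**
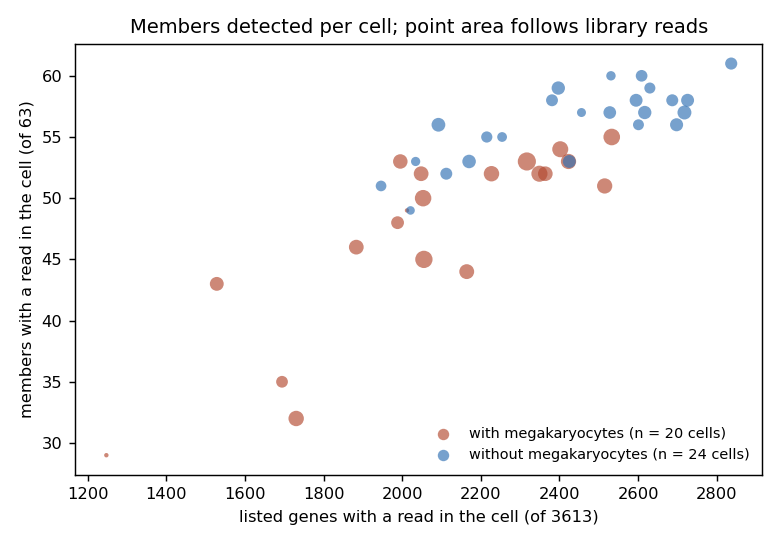
Each point is 1 cell, with the listed genes that had a read in it (horizontal) and the splicing and helicase genes that had one (vertical); point area follows library reads. The 24 cells without megakaryocytes hold 49 to 61 members, and the 20 with them 29 to 55.

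Single cells carried much of a gene's reads. For a given gene, its top cell held a median of 26.9% of that gene's reads with megakaryocytes and 12.3% without (33.8% and 19.6% over all genes compared), and it held over 50% for 9 and 4 members. For 16 of the 62 genes the pooled ratio and the mean log difference had opposite signs, since a pooled value follows the cells with the highest levels: 20 pooled ratios were above 1, but only 4 mean log levels were higher. Both are given below.

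**Figure D3:**
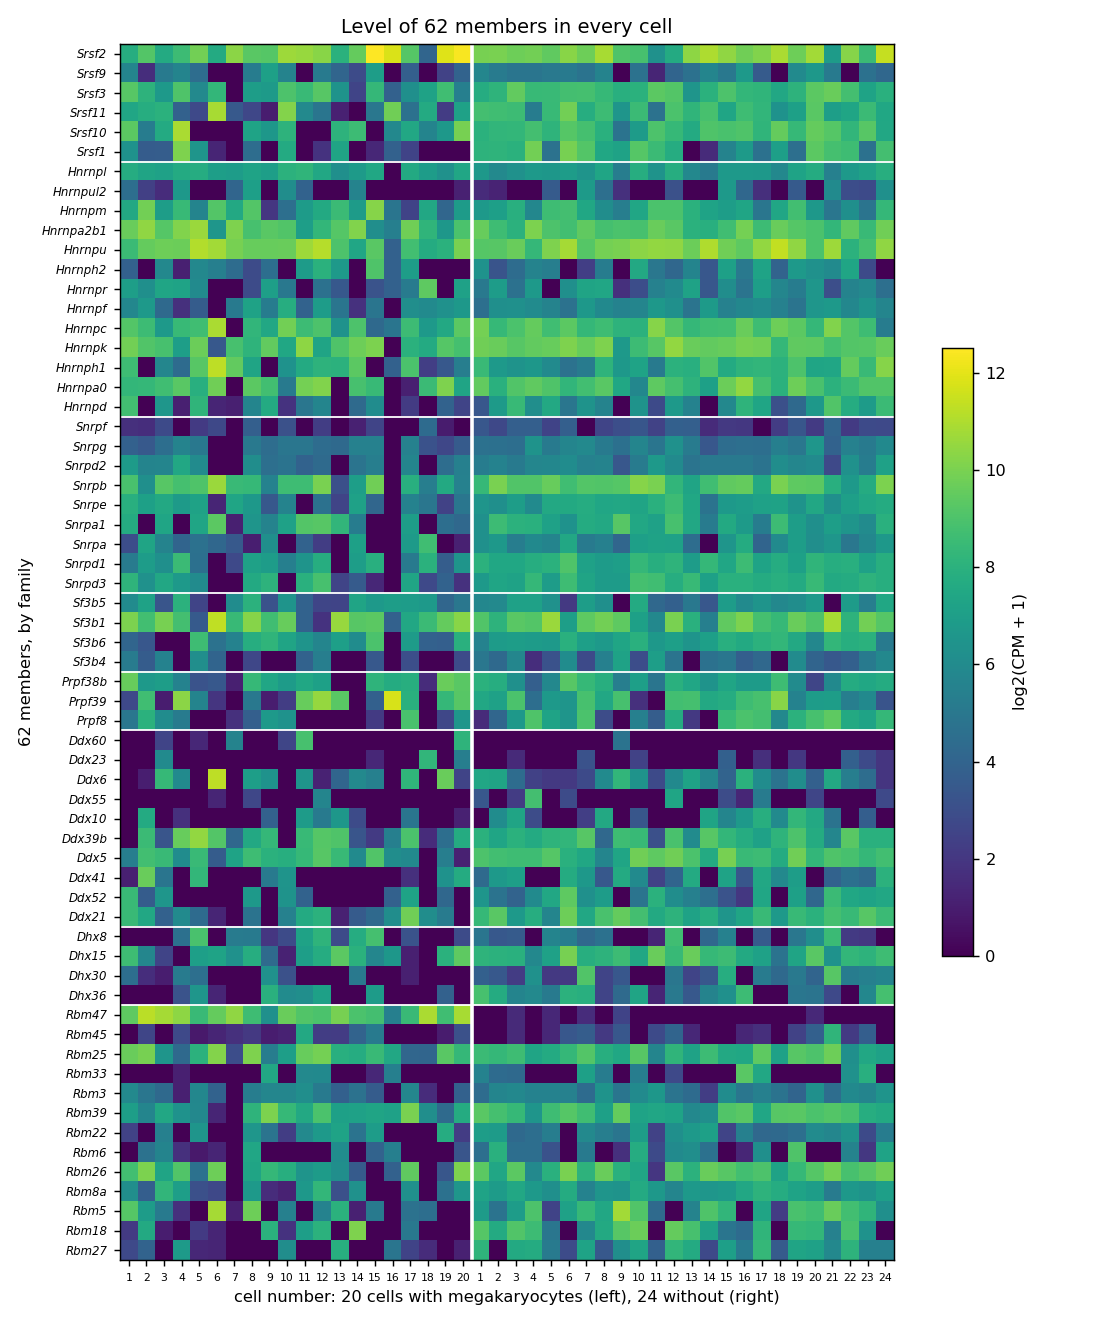
Rows are 62 of the 63 genes by family, columns the 20 cells with (left) and 24 cells without megakaryocytes (right), and colour is log2(CPM + 1). Dark cells (no read) are scattered through the left block, the columns of cells 7, 16 and 18 are dark over many rows, and the Rbm47 row is bright on the left and dark on the right.

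Among the 8 name families, Snrp was the only one in which every gene was lower on both measures. All 9 listed Snrp genes of a list of 12 were lower with megakaryocytes on both measures, with a median difference of -2.22 and a median log2 ratio of -0.75, and 3 of them (Snrpd1, Snrpd3 and Snrpf) passed 2-fold, against 28.2% of all genes compared. Over the reads of listed genes 6 passed, and under median-ratio scaling 1, with Snrpd3 at a log2 ratio of -0.95 and Snrpf at -0.88. Of all 3271 genes compared, 1098 and 822 were called lower in these scalings, in that order. Without the 4 cells of few genes Snrpd3 was at -0.88. Their summed level ran from 0 to 2389 CPM with a median of 785 in the cells with megakaryocytes, and from 789 to 2552 CPM with a median of 1589 in those without. Every cell without megakaryocytes was above the median cell with them, and the upper parts of the ranges overlapped. Cell 16, of 71585 reads, was the cell at 0. Pooled, the sum was 0.603 times as high (95% interval 0.591 to 0.616).

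Snrpd3 (chr10:75517551-75537381, plus strand) encodes SmD3, an Sm ring protein. Its level with megakaryocytes was 0 to 469 CPM with a median of 39.4, from 1678 reads in 16 of 20 cells, and without them 109 to 446 CPM with a median of 215, from 2837 reads in 24 of 24 cells. No cell without megakaryocytes was below 109 CPM, and the highest cell of all had megakaryocytes. Snrpd3 was 2.13-fold lower pooled (interval 2.00 to 2.26), with mean log2(CPM + 1) of 4.54 ± 3.24 (SD, n = 20 cells) against 7.74 ± 0.61 (n = 24 cells).

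Snrpd1, the SmD1 gene, showed the same layout. It had 0 to 367 CPM (median 80.8) with and 117 to 544 CPM (median 220) without megakaryocytes, and was 2.30-fold lower pooled (interval 2.16 to 2.45). Snrpb, which encodes the Sm protein SmB, had a read in 43 of the 44 cells. Its levels were 0 to 1564 CPM (median 342) and 104 to 1219 CPM (median 563), and its pooled ratio of 0.661 did not reach 2-fold. Snrpf, the gene of another Sm protein, had 0 to 19.7 CPM with and 0 to 15.8 CPM without. The other 5 had log2 ratios of -0.82 (Snrpe) to -0.09 (Snrpd2).

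The SF3 genes encode the part of the U2 snRNP that holds the branch point. The 4 listed genes of 9 had a median difference of -1.23 and a median log2 ratio of -0.09 (0.05 under median-ratio scaling). They had 1 lower call, against 28.2% of all genes compared. Their sums of 98.2 to 2558 CPM (median 745) and 209 to 2200 CPM (median 837) overlapped almost fully. Sf3b1, the branch-point subunit known for recurrent mutations in myeloid disease, had a read in 44 of 44 cells. Its level was 2.58 to 2517 CPM (median 520) with and 41.8 to 1879 CPM (median 574) without megakaryocytes, and its pooled ratio was 1.08. Scaled to the reads of listed genes, the log2 ratio of Sf3b1 changed sign, from 0.11 to -0.15. Sf3b4 was the gene called lower. It had a read in 11 of 20 and 22 of 24 cells, levels of 0 to 70.9 CPM (median 5.76) and 0 to 145 CPM (median 21.5), and a 2.19-fold lower pooled level (interval 1.86 to 2.58), just under 2-fold with median-ratio scaling (log2 ratio -0.99) and without the 4 cells of few genes (-0.98). Sf3b6, which contacts the branch-point region, had levels of 0 to 493 CPM and 34.1 to 311 CPM, a pooled ratio of 0.817 and no call. Sf3b5 had a pooled ratio of 1.09.

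Of the Prpf genes, 4 of a list of 12 were listed, and their pooled and mean log levels pointed apart for 3 of the 4. Prpf8 encodes the protein at the spliceosome's catalytic centre. It had a read in 12 of 20 and 22 of 24 cells, with 0 to 486 CPM (median 4.37) against 0 to 668 CPM (median 150). Although the ranges overlapped, most cells with megakaryocytes were at or near 0. Pooled, Prpf8 was 3.26-fold lower (interval 3.04 to 3.51), the largest fold among the Snrp, Sf3 and Prpf genes. Prpf38b and Prpf39, also splicing factors, had pooled log2 ratios of 0.56 and 0.36 but mean log differences of -0.90 and -1.33. The highest Prpf39 level, 3423 CPM, was in the shallow cell 16 with megakaryocytes.

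**Figure D4:**
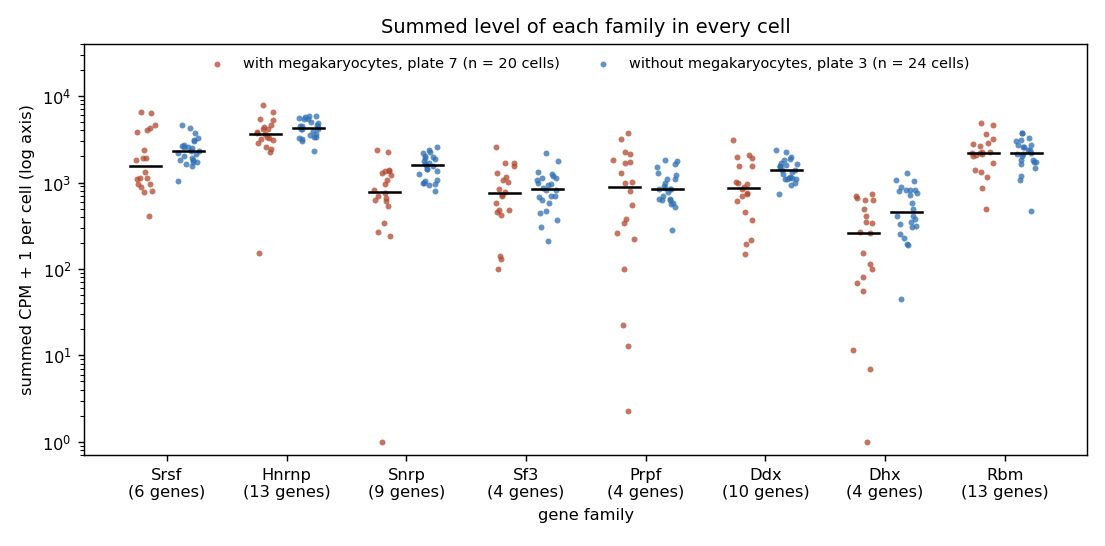
Each point is 1 cell and its height the summed CPM + 1 of a family's genes (log axis), with megakaryocytes (red) and without (blue); black bars are medians. The Snrp medians are 785 and 1589 CPM and the Rbm medians 2185 and 2176 CPM, and the cells with megakaryocytes reach lower in most families.

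Among the spliceosomal helicases, 6 of a list of 12 were listed, with 1 higher and 1 lower call, against 21.5% and 28.2% of all genes compared. Ddx23, a helicase of the U5 particle, was the higher one, but it rested on few cells. It had reads in 4 of 20 cells (0 to 301 CPM, median 0) and in 9 of 24 cells (0 to 13.4 CPM, median 0). Cell 18 held 61.4% of the reads with megakaryocytes. The pooled ratio was 7.91 (interval 5.23 to 12.5), while the mean log difference was 0.08 and became -0.18 without the top cell of each group and -0.17 without the 4 cells of few genes, both of which ended the call. Ddx5, a DEAD-box splicing and transcription cofactor, was the lower one. It had 0 to 605 CPM (median 193) with and 50.2 to 971 CPM (median 409) without megakaryocytes and was 2.14-fold lower pooled (interval 2.05 to 2.23), although median-ratio scaling took it just under 2-fold, to a log2 ratio of -0.96, and leaving out the 4 cells of few genes to -0.94.

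The other 4 had no call. Dhx15 releases the spliceosome at the end of splicing. Its level was 0 to 685 CPM (median 114) against 25.9 to 980 CPM (median 273), and it was 1.89-fold lower pooled (interval 1.80 to 1.98), past 2-fold only over the reads of listed genes or without top cells. Dhx8, which frees the spliced mRNA, had a read in 13 of 20 and 17 of 24 cells. With 0 to 487 CPM (median 6.28) and 0 to 409 CPM (median 11.1), its ranges overlapped almost fully, and its pooled ratio was 1.62 (interval 1.47 to 1.77). Ddx39b, which also acts in mRNA export, and Ddx41 had pooled log2 ratios of 0.31 and 0.41 and mean log differences of -1.60 and -2.25. Without top cells the log2 ratio of Ddx41 was -0.37.

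The ribosome-making helicases were the only helicase group with all compared genes called lower. They were 4 of 4 (Ddx10, Ddx21, Ddx52 and Ddx55), of 15 in the list, against 28.2% of all genes compared. Ddx55, read in 3 cells with and 10 without megakaryocytes, met the limit of 10 cells only through the cells without them. Its place in this count was thus partly set by that limit. Their sum was 0 to 1056 CPM (median 76.3) with and 157 to 1524 CPM (median 493) without megakaryocytes, a pooled ratio of 0.343 (interval 0.328 to 0.358). Ddx21 (chr10:62580251-62602281, minus strand) is a nucleolar helicase of ribosomal RNA transcription and processing. It had 0 to 876 CPM (median 31.3), with a read in 17 of 20 cells, against 51.0 to 849 CPM (median 301) in all 24. Every cell without megakaryocytes was above the median cell with them. Ddx21 was 2.92-fold lower (interval 2.76 to 3.09), and the cells with megakaryocytes included its highest value, in cell 17. Ddx52 had a read in 9 of 20 and 22 of 24 cells, with medians of 0 and 73.4 CPM, and was 2.40-fold lower. Ddx10 and Ddx55 were chosen after their values were seen. Ddx10 was 3.22-fold lower, at 0 to 200 CPM (median 0) and 0 to 308 CPM (median 10.7). Ddx55 had 45 and 322 reads in 3 and 10 cells and was 9.01-fold lower (interval 6.58 to 12.6), with 62.4% of the reads without megakaryocytes in 1 cell. Without the top cell of each group the log2 ratios moved further from 0, from -1.55 to -2.21 for Ddx21, from -1.69 to -2.45 for Ddx10 and from -3.17 to -4.65 for Ddx55.

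Of 25 other ribosome biogenesis factors, 11 were listed and compared. They had 7 lower and no higher calls, against 28.2% lower and 21.5% higher over all genes compared. Their median difference was -3.60, against -1.10 for all genes compared. Npm1, the nucleolar chaperone, was 2.82-fold lower, at 35.6 to 921 CPM (median 487) against 509 to 2007 CPM (median 1316). Wdr12, a factor of the large ribosomal subunit, had a read in 8 of 20 and 23 of 24 cells, with medians of 0 and 243 CPM, and was 5.51-fold lower.

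Helicases of translation, mRNA turnover and antiviral defence were few. Dhx36, which unwinds G-quadruplexes in RNA, had a read in 9 of 20 cells (0 to 241 CPM, median 0) and 21 of 24 (0 to 472 CPM, median 40.5), and was 2.71-fold lower (interval 2.46 to 2.99). Dhx30, a helicase of mitochondrial RNA and ribosomes, also had a read in 9 of 20 cells (0 to 79.0 CPM, median 0) and 21 of 24 (0 to 610 CPM, median 14.2). It was 6.66-fold lower (interval 5.70 to 7.81) from 193 and 1020 reads. With Dhx8 and Dhx15 they make up the 4 Dhx genes, whose sum was 0 to 738 CPM (median 261) and 44.4 to 1285 CPM (median 450). Ddx6, a decay and P-body helicase chosen after its values were seen, was 2.88-fold higher pooled but lower on the mean log measure, by -0.95. Its levels were 0 to 2483 CPM (median 29.5) and 2.84 to 300 CPM (median 46.8), and cell 6 held 48.9% of its reads with megakaryocytes. Leaving out both top cells moved the log2 ratio from 1.52 to 0.81. Ddx60 was the only antiviral helicase listed of 3 and the only member not compared. It had 308 reads in 6 of 20 cells (highest 463 CPM) and 11 reads in 1 of 24 (26.2 CPM), and 72.7% of the 308 were in cell 20. The 10 Ddx genes together reached 146 to 3078 CPM (median 872) with and 739 to 2395 CPM (median 1389) without megakaryocytes, a pooled ratio of 0.769.

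Ddx60 is itself known to be induced by interferon. Of a list of 27 other interferon-stimulated genes, 20 were listed and 13 compared, and all 13 were called higher, against 21.5% of all genes. A gene read almost only with megakaryocytes could be compared through those cells alone, and the macrophage markers moved with the same groups. Trim30a had 6397 reads in 15 of 20 cells with megakaryocytes (0 to 2332 CPM, median 157) and none without. Rsad2 had 114 reads in 6 cells and 5 reads in 4. Ifih1, the helicase MDA5 that senses viral double-stranded RNA, had 2299 reads in 12 of 20 cells (0 to 829 CPM, median 4.83) and none without, at least 608-fold higher if the cells without are taken to hold 3 reads in all. Among 7 listed helicases outside the named families, Ifih1 was the 1 higher and Ascc3 and Eif4a2 the 2 lower, against 21.5% and 28.2% of all genes compared. Eif4a2, a translation initiation helicase, had 0 to 385 CPM (median 0.529) against 164 to 686 CPM (median 306) and was 6.42-fold lower.

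The 6 Srsf genes were all lower by mean log level (median difference -2.05), against 72.2% of all genes compared. Only Srsf1 was called lower, against 28.2% of all genes compared, and 1 pooled ratio was above 1. Summed, the 6 Srsf genes reached 407 to 6603 CPM (median 1565) with and 1034 to 4566 CPM (median 2331) without megakaryocytes, and both extremes were cells with megakaryocytes. Srsf1 (chr11:88047373-88053755, plus strand), the prototype SR protein, had a read in 13 of 20 and 23 of 24 cells. It had 0 to 1104 CPM (median 3.63) and 0 to 996 CPM (median 231), so the typical cells differed though the ranges overlapped. Its pooled level was 2.99-fold lower (interval 2.81 to 3.18). Cell 4 held 64.5% of the reads with megakaryocytes, and without the top cell of each group the log2 ratio went from -1.58 to -2.86. Srsf10, a splicing repressor active on heat shock and in mitosis, had 0 to 1927 CPM (median 99.3) and 26.2 to 750 CPM (median 329), with a pooled ratio of 0.743 and a mean log difference of -3.01. Srsf2, an SR protein recurrently mutated in myeloid disease, was read in 44 of 44 cells, at 15.7 to 5844 CPM (median 686) and 78.6 to 2699 CPM (median 961). Its highest cells had megakaryocytes and its medians ran the other way. The pooled ratio was 1.31 and the mean log levels were 9.52 ± 1.99 (SD, n = 20 cells) and 9.67 ± 1.26 (n = 24 cells). Srsf3, Srsf9 and Srsf11 had pooled log2 ratios of -0.74, -0.16 and -0.55, and Srsf11 reached -1.16 without top cells.

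The 13 Hnrnp genes had no call in either direction, against a call for 49.7% of all genes compared. Hnrnpd was called lower, however, over the reads of listed genes (log2 ratio -1.05) and on the deposited signal (-1.02). The median difference of the 13 genes was -0.94, and their median log2 ratio was 0.15, which turned to -0.11 over the reads of listed genes and to -0.23 without the top cell of each gene. Sums of 154 to 7968 CPM (median 3670) and 2291 to 5932 CPM (median 4284) gave a pooled ratio of 0.919. Hnrnpu, a nuclear matrix and RNA-binding protein, was read in 44 of 44 cells, at 14.0 to 2226 CPM (median 788) with and 265 to 2647 CPM (median 981) without megakaryocytes. The ranges overlapped, with 1 cell with megakaryocytes far below all others. Hnrnpa2b1 and Hnrnpm were also read in every cell, with pooled log2 ratios of 0.38 and 0.41. Hnrnpl, a regulator of exon choice in immune genes such as Ptprc, was the 1 Hnrnp gene higher on both measures. It had 0 to 289 CPM (median 156) against 34.2 to 227 CPM (median 103), a pooled ratio of 1.42 (interval 1.33 to 1.52) and a mean log difference of 0.28, which was no longer above 0 over the reads of listed genes. At the other end, Hnrnpd (AUF1, a regulator of mRNA decay) had 0 to 417 CPM (median 9.74) against 0 to 560 CPM (median 84.9) and a mean log difference of -2.18. Hnrnpa0, known for binding AU-rich mRNAs, had 0 to 1118 CPM (median 355) against 54.6 to 1446 CPM (median 469) and -1.69. The other 7 (Hnrnpc, Hnrnpf, Hnrnph1, Hnrnph2, Hnrnpk, Hnrnpr and Hnrnpul2) had log2 ratios of -0.59 (Hnrnpk) to 0.40 (Hnrnph1) and mean log differences of -1.54 (Hnrnph1) to -0.21 (Hnrnpul2).

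Rbm47, an RNA-binding protein known as a cofactor of C-to-U mRNA editing and as a splicing regulator, was the gene that set the groups apart. It had 14267 reads in 20 of 20 cells with megakaryocytes, at 41.9 to 2362 CPM (median 617), and 6 reads in 5 of 24 cells without, at 0 to 4.76 CPM (median 0). The ranges did not overlap, which held for 1 of the 62 members and for 0.703% of all genes compared. Its pooled level was 912 CPM against 0.483 CPM, a ratio of 1888 (interval 867 to 5145), and its mean log2(CPM + 1) was 9.25 ± 1.47 (SD, n = 20 cells) against 0.35 ± 0.73 (n = 24 cells). The lowest of the 20 cells was the shallow cell 16. The macrophage markers given above divided the cells in the same way, and their part in the level of Rbm47 was not tested.

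**Figure D5:**
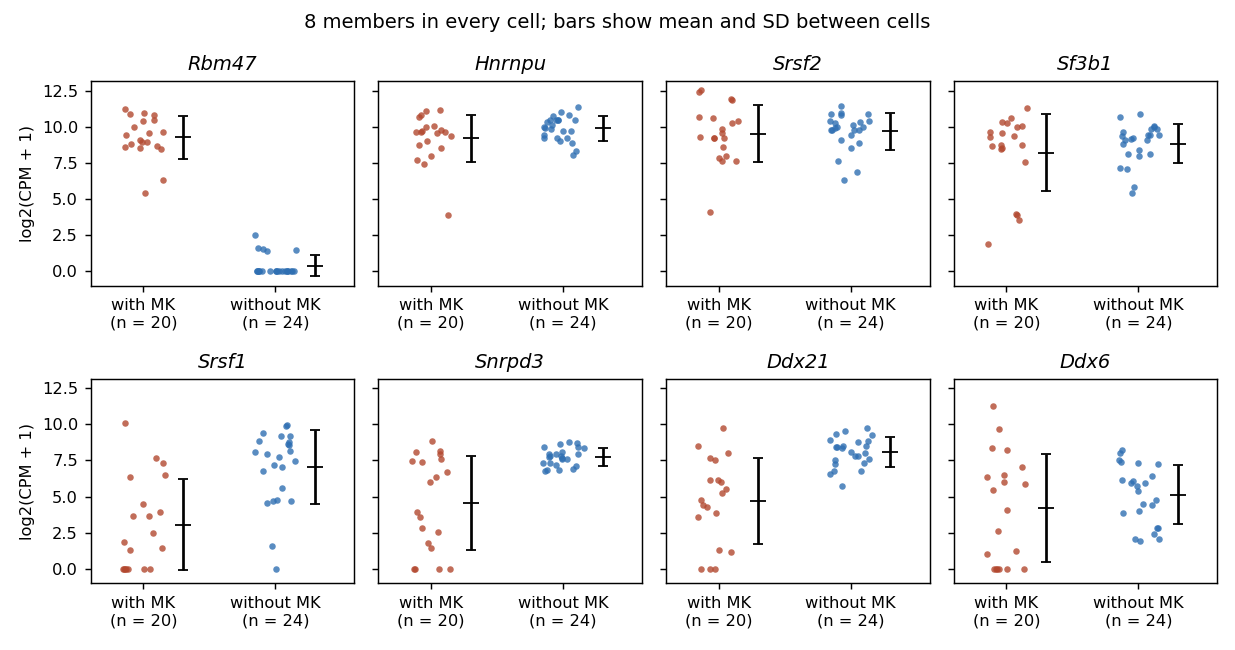
Each point is 1 cell's log2(CPM + 1) of the named gene, with megakaryocytes (MK, red, n = 20) and without (blue, n = 24); bars show the mean and SD between cells. Rbm47 separates the groups without overlap, Hnrnpu, Srsf2 and Sf3b1 lie at similar heights, and Srsf1, Snrpd3 and Ddx21 spread down to 0 mainly with megakaryocytes. Ddx6 has its highest cell at 2483 CPM with megakaryocytes.

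The other 12 Rbm genes were lower by mean log level, 5 of them by call, against 72.2% and 28.2% of all genes compared. Rbm27, an RNA-binding protein linked to nuclear RNA turnover, had 0 to 231 CPM (median 1.33) with and 0 to 322 CPM (median 103) without megakaryocytes and was 4.90-fold lower (interval 4.36 to 5.50). Rbm18 had 0 to 1096 CPM (median 1.20) and 0 to 830 CPM (median 197) and was 2.62-fold lower, with 56.0% of its reads with megakaryocytes in cell 14. Rbm33 and Rbm6 were 3.99-fold and 3.49-fold lower. Without top cells the log2 ratios went from -2.29 to -3.14 for Rbm27, from -1.39 to -2.37 for Rbm18 and from -1.99 to -2.93 for Rbm33. Rbm45 met the call only through 1 cell: without megakaryocytes cell 21 held 80.9% of its 251 reads. Leaving out both top cells moved its log2 ratio from -2.02 to -0.11 and its mean log difference from -0.02 to 0.08. Rbm25, a splicing regulator, was read in 44 of 44 cells, at 6.87 to 1152 CPM (median 247) and 50.4 to 847 CPM (median 259), with a pooled ratio of 1.21. The cold-induced gene Rbm3 had a log2 ratio of -0.71 and the exon junction gene Rbm8a one of -0.80. Rbm5, Rbm22, Rbm26 and Rbm39 had log2 ratios of -0.58 (Rbm39) to -0.04 (Rbm22), and mean log differences of -2.72 (Rbm5) to -1.52 (Rbm39). With Rbm47 included, the family sum was alike in both groups, at 489 to 4862 CPM (median 2185) and 467 to 3761 CPM (median 2176).

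Of 95 further spliceosome genes and splicing regulators outside these names, 47 were listed and compared. Calls were 1 higher (Snrnp25, named after its values were seen) and 14 lower, against 21.5% and 28.2% of all genes compared. The median difference was -1.50, near the -1.53 of the 62 members, against -1.10 for all genes compared. Ptbp3, a polypyrimidine tract-binding splicing repressor, had the highest difference. It had 2.83 to 2170 CPM against 0 to 1112 CPM, a pooled ratio of 1.88. Ncbp1, the large cap-binding subunit, had the lowest. It was read in 7 of 20 cells (0 to 197 CPM, median 0) and 21 of 24 (0 to 534 CPM, median 75.9), with a pooled ratio of 0.192. Of the nuclear retained RNAs, Neat1 was called higher, 8.03-fold, at 13.0 to 21725 CPM (median 1102) against 0 to 2466 CPM (median 47.5), whereas Malat1 and Xist were not, with Xist read in 7 and 4 cells.

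Promoters of 51 of the 63 genes were matched in RefSeq (GRCm38.p6, the mm10 assembly), each from 250 bases before to 50 after a start site. They had a median GC content of 60.1% and 25 CpG, against 61.0% and 22 CpG for 2814 listed genes and 52.8% and 7 CpG for 27025 genes. The ETS motif CCGGAAG (either strand) was in the windows of 14 of the 51 genes (27.5%), including 3 Dhx and 4 Ddx genes, against 23.3% of listed and 9.93% of all genes. CCAAT (either strand) was in 54.9%, against 41.5% and 41.1%, GGGCGG in 56.9%, against 70.1% and 38.2%, and the TATA motif TATAAA in 13.7%, against 9.49% and 15.7%. The PU.1-type motif GAGGAAGT, which shares its middle letters with CCGGAAG but cannot match at the same place, was in 5.88% of the 51 genes and 4.58% of listed genes. Beside these motifs GCATGCGC (NRF1) and CACGTG (E-box) were searched, at 5.88% and 13.7% of the 51 genes. Rbm47 lay below the member medians: its 3 windows held 3 to 14 CpG and 42.7% to 51.7% GC. It was not alone in this, as Rbm25 had 0 CpG and 35% GC and Ddx60 had 6 CpG and 46% GC. The 250 bases before the start of 3 genes follow, with the ETS, PU.1-type, TATA and NRF1 motifs of either strand in capitals. Rbm47 (chr5:66151955-66152204, minus strand) is shown as the gene that separated the groups, Dhx36 (chr3:62506989-62507238, minus strand) as a called helicase with the ETS motif at 2 places, and Srsf2 (chr11:116853095-116853344, minus strand) as a gene read in all cells with the TATA motif shortly before its start.
Rbm47: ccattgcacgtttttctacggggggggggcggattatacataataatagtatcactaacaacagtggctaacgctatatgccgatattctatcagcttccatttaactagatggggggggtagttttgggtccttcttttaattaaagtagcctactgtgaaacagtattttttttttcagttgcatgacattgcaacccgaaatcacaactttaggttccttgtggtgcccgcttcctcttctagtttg
Dhx36: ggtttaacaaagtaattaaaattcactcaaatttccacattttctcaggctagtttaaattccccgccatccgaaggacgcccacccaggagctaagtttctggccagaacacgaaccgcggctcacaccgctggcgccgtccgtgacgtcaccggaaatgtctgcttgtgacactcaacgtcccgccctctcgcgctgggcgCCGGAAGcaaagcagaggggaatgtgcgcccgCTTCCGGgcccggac
Srsf2: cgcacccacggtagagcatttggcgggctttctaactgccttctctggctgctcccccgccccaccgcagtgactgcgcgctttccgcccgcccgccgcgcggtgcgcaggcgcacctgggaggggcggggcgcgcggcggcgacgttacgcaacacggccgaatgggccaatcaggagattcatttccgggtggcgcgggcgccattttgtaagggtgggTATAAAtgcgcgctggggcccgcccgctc
The first holds none of the 4 capitalised motifs in this window, the second 2 and the third 1. A match is a run of letters only, and no binding was measured.

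Gene positions here and above are from GENCODE (GRCm38). The exons of 26 of the 63 genes overlap an exon of another gene, and those of 12 a protein-coding gene, such as Hnrnpu with Cox20, Snrpd3 with Gucd1, Dhx30 with Smarcc1 and Srsf2 with Mfsd11, each on the opposite strand. Rbm47 (chr5:66016549-66173118, minus strand) overlaps the antisense transcript Gm26725. Whether the counting used strand is not given in the sources used here, so reads of such pairs cannot be told apart, and processed copies of Hnrnp and Snrp genes elsewhere in the genome could take or lend reads.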

How the data were processed

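Single-cell RNA-seq libraries of 44 cells were used. The authors deposited 1 table of a normalized signal for 3613 genes. Per the submitters' processing notes, mm10 and Seurat were used; the aligner, the counter and the gene annotation were not given in the sources used here. In each cell the deposited signal came in steps of 1e+09 over a whole number, taken as the library's reads, and for each gene the smallest whole divisor was taken that makes all values whole. All 99807 values above 0 came out whole within 0.0001. The recovery was also run on simulated data. These were built with the library reads and divisors that the recovery had given, so the run cannot show whether those are the true ones. How 3613 genes were chosen is not known.

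Recovered reads were divided by library reads (CPM, per 1000000 library reads). A design on CPM of reads had been laid down, and the unit proved to be signal, so CPM rests on this recovery. Genes read in 10 or more of the 44 cells were compared by pooled CPM and mean log2(CPM + 1). With 1 sample a group no test was run. Intervals are exact (binomial for ratios, 95%) and cover counting error only, since reads had no molecular identifiers. No doublet caller was run, and each library is a separate capture.

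Named genes were, in each family, the 2 highest and 2 lowest differences with a pooled ratio of the same direction, the gene read in the most cells, the antiviral helicases, and the highest and lowest of each list; other members are named to account for the 63, of which 1 is counted but not reported by name here. Members and lists were chosen with earlier results of these data known. Python 3.11.15, numpy 2.4.6, pandas 2.3.3, scipy 1.17.1 and matplotlib 3.10.9 were used.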

Additional observations from a re-analysis of the deposited data

How the results depend on the processing

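Of the 18 genes lower with megakaryocytes, 13 kept the call in every alternative at 2-fold in which they were compared (Ddx10, Ddx21, Ddx52, Ddx55, Dhx30, Dhx36, Prpf8, Rbm18, Rbm27, Rbm33, Rbm6, Snrpd1 and Srsf1), and of the 2 higher only Rbm47 did. Ddx55 and Rbm33 were not compared when reads were required in 20 of 44 cells, which left 16 lower. The higher count was 1 in that setting, 1 without the 4 cells under 1800 listed genes (added after seeing the data), 1 over the reads of listed genes, 1 without the top cell of each gene and 1 on the deposited signal, and 3 when Ddx60 was compared. The lower count was 13 (median-ratio scaling) to 25 (reads of listed genes). Over all 3271 genes compared the lower count was 923, and 822 and 1098 in those scalings, in that order. At 4-fold, 4 members were lower and 2 (Rbm47 and Ddx23) higher. No count over all genes was made at 4-fold, so these counts cannot be set beside a share of all genes. The higher count over all genes, 702, was 609 over the reads of listed genes and 670 without top cells. It was 678 on the deposited signal and 733 without the 4 cells under 1800 listed genes. The median difference of the members, -1.53, became -1.82 over the reads of listed genes, -1.41 with median-ratio scaling, -1.64 without top cells, -0.91 with a pseudocount of 10 CPM, -1.11 without the 4 cells under 1800 listed genes and -2.57 on the deposited signal. The median pooled log2 ratio, -0.55, became -0.81, -0.41 and -0.68 in the first 3 of these. The median over all genes, -0.14, was then -0.40, 0 and -0.47, and the gap of the members to it, -0.41 in both scalings, was -0.20 without top cells and -0.33 on the deposited signal. Of 280 single-gene log2 ratios recomputed, 278 kept their sign, a count of signs only and not of sizes. It overstates stability, since a pseudocount of 10 CPM does not enter a pooled ratio and those values could not change. Both scalings moved all genes by the same amount. The genes recomputed were a chosen set that held all called genes. Ddx41, outside this set, went from 0.41 to -0.37 without top cells. The mean log summed level of all members was lower by 0.22 on the log2 scale, and lower by 0.08 to 0.48 in the alternatives. It was not computed on the deposited signal, whose divisor differs between genes. No paired analysis was possible because each group is 1 sample, no test was run and cell numbers are only names. Depth of 69181 reads in the shallowest cell limits what a 0 means there.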
